A study of Mus musculus with 72 samples.

Results

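The data described here are the shares of new RNA of single genes in the cytosol of mouse embryonic stem cells, compared between a pair of replicate sets that were labeled at different 4-thiouridine (4sU) concentrations for the same time. A gene was included when its exons held at least 2000 sequenced T positions (T counts) in each of 8 cytosolic libraries, which 9951 of the 30099 genes with conversion counts did. E14TG2a cells, a feeder-free mouse embryonic stem cell line, were grown with leukemia inhibitory factor and a pair of kinase inhibitors (2i), labeled with 4sU, and separated by detergents into cytosolic, membrane and nuclear fractions. The cytosolic fraction is what digitonin released from the cells. Replicates 3 and 4 are taken here as labeled with 4sU at 500 µM and replicates 5 and 6 at 100 µM. The study's methods name both doses at these times but do not number the replicates, and conversion rates were higher in replicates 3 and 4. The sample labels give 100 µM for all 8 libraries. Each set was labeled for 60 and for 120 min, which gives 4 groups of 2 libraries from a single cell line. By these doses, replicates 3 and 4 at 120 min fall under a dose and time that the authors left out of their own later analysis. The reason they gave was that gene expression had changed there. No library of 60 or 120 min from 1 set had the other dose, so dose and replicate set cannot be told apart in any comparison between the sets. The replicates are described as separately passaged cultures of the line.

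4sU is a uridine analog that cells take up, phosphorylate through the pyrimidine salvage pathway and build into nascent RNA. After alkylation with iodoacetamide, sequencing shows a C where the RNA carried a 4sU, and such T-to-C (T2C) conversions mark RNA made after labeling began. Only some of the uridines of a new transcript are replaced, so the conversion rate, the chance that a T in new RNA is read as C, is needed to turn conversions into a share of new RNA. In the cytosol, new mRNA appears after transcription, splicing and export. An mRNA with a short lifetime is soon almost all new, and a stable one is renewed slowly. A share that is corrected for the conversion rate is meant to be the same whatever the amount of 4sU given.

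The libraries held 19572053 to 27632874 reads on genes (cytosolic libraries of 60 and 120 min). The defining mRNAs of embryonic stem cells were abundant in all 8, with 8 markers summing to 7743 to 8555 CPM (counts scaled to the library's reads on genes). Markers of other cell types were low in every library, from 0.1 to 0.44 CPM in sum for 2 trophoblast markers to 25.0 to 36.4 CPM for 3 ectoderm markers, and the fibroblast transcripts Lum and Dcn were at 0. The 9951 genes comprised 9251 protein-coding genes, 504 pseudogenes and 81 long intergenic RNAs among others (Gencode M21 annotation).

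Libraries with the higher dose had more conversions and a lower share of new RNA. In the median gene, 0.504, 0.649, 0.458 and 0.438% of T positions were converted at 60 min in replicates 3, 4, 5 and 6, the order used for all values from single libraries hereafter. At 120 min the values were 1.93, 2.44, 1.14 and 1.16%. The conversions of the 500 µM set were thus above those of the 100 µM set, by a factor of 1.29 at 60 min and 1.90 at 120 min.

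The conversion rates that the study's mixture model had assigned to the libraries differed more than the conversions did. They were 5.83, 7.57, 2.38 and 2.58% at 60 min and 8.83, 11.4, 3.26 and 3.36% at 120 min, ratios of 2.704 and 3.05 between the sets at a ratio of doses of 5. Dividing the conversions by these rates gave median shares of 0.0864, 0.0857, 0.193 and 0.170 at 60 min. At 120 min the median shares were 0.218, 0.215, 0.349 and 0.346. The 500 µM set was below the 100 µM set at both times without overlap of the libraries.

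**Figure D1:**
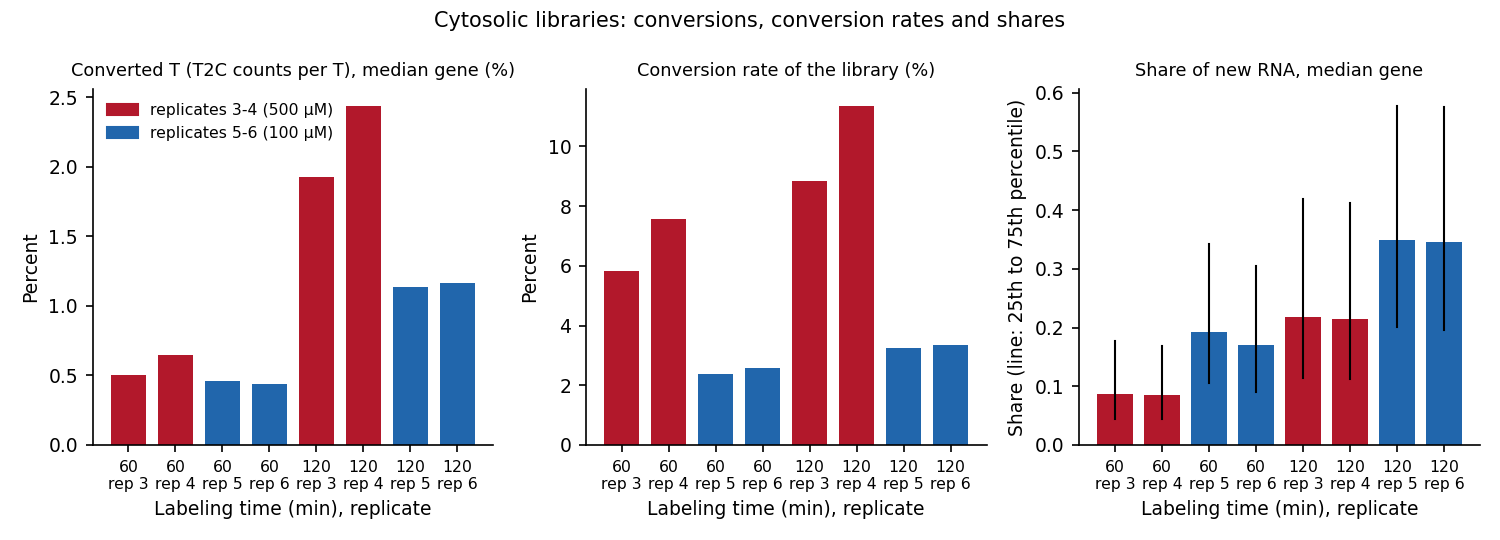
Bars give, for each of the 8 cytosolic libraries (labeling time in min and replicate on the x axis), the percent of T positions converted in the median gene, the conversion rate in percent, and the share of new RNA of the median gene with a line from the 25th to the 75th percentile of genes. The 500 µM libraries (red) are higher in the first and second panel and lower in the third, where they sit at 0.0857 to 0.218 against 0.170 to 0.349 in the 100 µM libraries (blue).

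The ratio of the sets was therefore 0.474 at 60 min, from 0.0861 ± 0.000493 to 0.181 ± 0.0162 (mean ± SD, n = 2 each). At 120 min it was 0.623, from 0.217 ± 0.00249 to 0.347 ± 0.00252 (n = 2 each). Single pairs of libraries gave 0.444 to 0.508 and 0.615 to 0.632, so the ratios of the 2 times did not overlap. An exact two-sided permutation test of 2 libraries against 2 cannot go below p = 0.3333, which both comparisons reached. The median share grew 2.52-fold from 60 to 120 min in the 500 µM set and 1.91-fold in the 100 µM set.

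The lower share was a property of most genes. The ratio of a gene's mean shares lay between 0.274 and 0.849 for the central 90% of genes at 60 min (5th to 95th percentile) and between 0.396 and 0.963 at 120 min. It was above 1 for 200 genes (2.01%) at 60 min and for 374 genes (3.76%) at 120 min. Shares above 1, which a share cannot truly reach, occurred in 14, 8, 77 and 44 genes at 60 min. At 120 min they occurred in 84, 40, 311 and 333 genes. At each time they were more frequent in both 100 µM libraries than in either 500 µM library. In all, 442 genes had such a share in any library.

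Individual genes were then compared with this overall ratio. The departure of a gene is the log2 ratio of its shares, 500 µM set over 100 µM set, relative to the ratio of the library medians: a gene at 0 follows the overall ratio, and a gene at 1 is 2-fold above it. The overall ratio itself was −1.08 at 60 min and −0.68 at 120 min on the log2 scale, so a gene with the same share at both doses lies above 0 by that much. Departures were tested with the quasi-likelihood test of edgeR on the T2C counts, with T counts and conversion rate as exposure. A gene was called when its p-value adjusted over all 9951 genes was under 0.05 and its departure was over 0.5 in size, the limits the study used for differential expression.

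At 60 min, 1202 genes (12.1% of 9951) were called, 889 higher (8.93%) and 313 lower (3.15%) than the overall ratio. At 120 min, 778 genes (7.82%) were called, 529 higher (5.32%) and 249 lower (2.5%). Called higher at both times were 305 genes (3.07%), called lower at both were 80 (0.804%), and none was called in opposite directions. With only the 4 libraries of a time in the fit, 651 and 1179 genes were called. With the conversion level of the 1% of genes with the lowest shares subtracted as background, 398 were called at 120 min. Of these, 292 were among the 778. The central 90% of departures ran from −0.78 to 0.84 at 60 min and from −0.65 to 0.62 at 120 min. Relative to the library medians, both libraries of the 500 µM set were above both of the 100 µM set for 3391 genes (34.1%) and below for 1998 (20.1%) at 60 min, and for 4116 (41.4%) and 2294 (23.1%) at 120 min. Close to the overall ratio, within 0.25, were 4051 genes (40.7%) at 60 min and 4648 (46.7%) at 120 min.

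The excess of genes called higher depended on how libraries were centred. The median gene had a departure of 0.10 at both times under the main centring, and of 0.0070 and 0.0037 with TMM factors. With TMM factors the calls were 506 higher and 470 lower at 60 min, and 225 higher and 386 lower at 120 min.

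The number of calls rested on replicates 5 and 6. Without replicate 5, 12 genes were called at 60 min and none at 120 min (edgeR, with 1243 genes at an unadjusted p under 0.05). Without replicate 6, the counts were 69 and none (1260 genes at an unadjusted p under 0.05). Leaving out replicate 3 gave 1736 and 1434 calls and leaving out replicate 4 gave 2403 and 1652. The spread within the sets was in the same order: the SD over genes of the log2 ratio of shares was 0.472 between replicates 3 and 4 at 60 min, 0.299 between replicates 5 and 6, and 0.482 to 0.534 between libraries of different sets. At 120 min the corresponding values were 0.349, 0.234 and 0.438 to 0.462.

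Departures at the 2 times had a Pearson correlation of 0.50 and a Spearman correlation of 0.56 across 9951 genes. The libraries of the 2 times were separate, but each dose came from the same replicate set at both times, and genes are not independent replicates. As a background within 1 dose, replicates 1 and 2 were compared with replicates 3 and 4 at 20 min, all labeled at 500 µM. There 113 of 9877 genes (1.14%) were called, 76 higher (0.769%) and 37 lower (0.375%). That count was 46 with DESeq2, 5 with limma, 2 and 4 without replicate 1 or 2, and 446 and 159 without replicate 3 or 4. Conversions were far fewer in these libraries, with 14 to 25 T2C counts in the median gene against 119 to 227 at 60 min, so smaller differences were detectable at 60 than at 20 min.

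**Figure D2:**
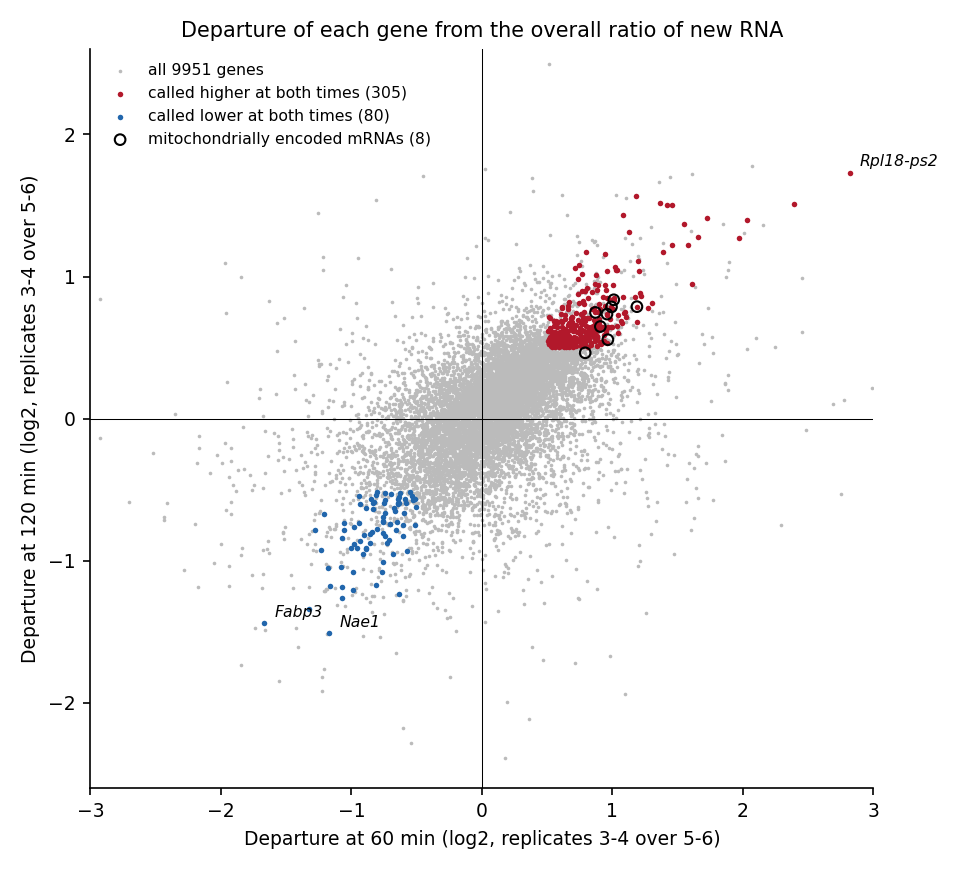
Each point is a gene, with its departure from the overall ratio at 60 min (x axis, log2) and at 120 min (y axis, log2). Red marks the 305 genes called higher at both times and blue the 80 called lower, circles mark the 8 mitochondrially encoded mRNAs, which lie in the upper right quadrant, and 9 genes fall outside the axes.

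The 10 largest positive departures among genes called at both times were mainly pseudogenes and small genes with few conversions. Rpl18-ps2, a processed pseudogene of a ribosomal protein gene (GRCm38 chr6:128313357-128313923, single exon), had shares of 0.310, 0.329, 0.158 and 0.0458 at 60 min. At 120 min its shares were 0.624, 0.356, 0.236 and 0.231. The 500 µM libraries were above the 100 µM libraries at both times, with departures of 2.82 ± 0.52 (SE, adjusted p = 0.0027 by edgeR) and 1.73 ± 0.42 (adjusted p = 0.017). These rested on as few as 4 T2C counts in 1 library. Reads of a processed pseudogene can come from its parent gene, so such values are uncertain. The pseudogenes Eif5al3-ps, Rpl7-ps7, Gm12254, Gm8276 and Rps15a-ps6 were the others of this kind, with 5 to 14 T2C counts in their poorest library, and Gm10260 is a single-exon gene with 21.

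By their annotation, Pam and Fkbp10 were multi-exon genes among these 10. Pam, which encodes the enzyme that amidates the C-terminus of peptide hormones (chr1:97795114-98095646, 26 exons), had shares of 0.213, 0.194, 0.130 and 0.180 at 60 min and of 0.423, 0.399, 0.316 and 0.152 at 120 min. The shares did not fall in the 500 µM set, and the departures were 1.45 ± 0.31 and 1.51 ± 0.28 (adjusted p = 0.0066 and 0.0051, edgeR). The tenth gene, Gm3531, is a processed pseudogene that lies inside Pam on the same strand (chr1:97948901-97949389), with departures of 1.37 and 1.52. At 60 min its T2C counts were 198, 238, 27 and 37, against 199, 248, 30 and 43 for Pam. The mean T count was 12132 for Gm3531 and 14005 for Pam. Nearly all counts of Pam are thus matched by the single-exon pseudogene, and the pair cannot be counted as separate measurements. The departure of Pam cannot be assigned to its multi-exon mRNA. Fkbp10, a prolyl isomerase of the endoplasmic reticulum (ER), departed by 1.65 ± 0.41 and 1.28 ± 0.34 (adjusted p = 0.013 and 0.023, edgeR). At 20 min, between sets of the same dose, Fkbp10 was also called, with a share higher in replicates 3 and 4 than in replicates 1 and 2 (log2 ratio of the latter over the former −3.63, adjusted p = 0.036, edgeR).

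The 10 largest negative departures belonged to protein-coding genes, apart from Tmem134, which the annotation lists as a processed transcript. Fabp3, a cytosolic fatty acid carrier (chr4:130308595-130315463), had shares of 0.0118, 0.0195, 0.121 and 0.0924 at 60 min and of 0.0300, 0.0397, 0.147 and 0.158 at 120 min. Both 500 µM libraries lay far below the 100 µM libraries, with departures of −1.67 ± 0.27 (adjusted p = 0.0013, edgeR) and −1.44 ± 0.25 (adjusted p = 0.0041). Its departure at 20 min between sets of the same dose was 1.56 (adjusted p = 0.076, edgeR), the set of replicates 1 and 2 being higher than that of replicates 3 and 4. Fabp3 also had more reads in the 500 µM set, by a log2 fold change of 1.38 at 60 min and 1.12 at 120 min.

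Nae1, a subunit of the enzyme that activates the ubiquitin-like protein NEDD8 (chr8:104511028-104534637, 20 exons), had shares of 0.0214, 0.0258, 0.0948 and 0.127 at 60 min. At 120 min they were 0.0438, 0.0394, 0.182 and 0.199. The sets were separated at both times, by −1.17 ± 0.23 and −1.51 ± 0.21 (adjusted p = 0.0038 and 0.0015, edgeR). Other members of the group were Tex14, a protein of germ cell bridges; Caprin2, an RNA-binding protein; Pole2, a subunit of DNA polymerase epsilon; Rars2, the mitochondrial arginyl-tRNA synthetase; Zwilch, a kinetochore protein; and Anxa11, a calcium-dependent membrane-binding protein. Their departures lay between −1.32 and −0.99 at 60 min and between −1.34 and −0.93 at 120 min. The level taken as background at 60 min was 0.117% of T in replicate 3 and 0.129% in replicate 4. Conversions of Tex14, Pole2, Rars2 and Anxa11 were below this level in both libraries, and those of Fabp3 in replicate 3. Conversions of Nae1, Caprin2 and Zwilch were above this level in both. For the genes below this level, the size of the departure at 60 min is uncertain.

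The genes that departed least followed the overall ratio within narrow limits. Hnrnpc, an abundant nuclear RNA-binding protein (chr14:52073377-52104028), had shares of 0.0639, 0.0651, 0.137 and 0.134 at 60 min and of 0.119, 0.107, 0.174 and 0.187 at 120 min. It rested on at least 1794 T2C counts per library, and the 95% intervals of its departure were −0.21 to 0.21 at 60 min and −0.20 to 0.21 at 120 min. The other 7 genes chosen for small departures and at least 200 T2C counts were Atf1, a transcription factor of the CREB family, Nol8, a nucleolar protein, Psmd12, a proteasome subunit, Prpf18, a splicing factor, Api5, an apoptosis inhibitor, Fam32a and the pseudogene Rpl10a-ps1. Their intervals all lay within −0.29 and 0.32, and departures up to that size could not be told from 0 for them.

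To describe departures free of low counts, the protein-coding genes with at least 200 T2C counts in each of the 8 libraries were taken apart after their values had been seen. Of 2672 such genes, 126 were called higher at both times and 31 lower. Polr2a, the largest subunit of RNA polymerase II (chr11:69733997-69758637), had the largest mean departure. Its shares were 0.389, 0.272, 0.325 and 0.268 at 60 min and 0.490, 0.482, 0.450 and 0.396 at 120 min. The 500 µM libraries were at or above the 100 µM libraries at both times apart from the 60 min libraries of replicates 4 and 5, and the departures were 1.21 ± 0.14 and 0.88 ± 0.13 (adjusted p = 0.00019 and 0.0024, edgeR). Its read counts were lower in the 500 µM set, by log2 fold changes of −1.91 and −1.11.

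Actb, cytoplasmic beta-actin, is a stable mRNA with a low share that behaved in the same way. The shares were 0.0918, 0.0891, 0.0939 and 0.0828 at 60 min and 0.139, 0.118, 0.124 and 0.127 at 120 min. The libraries of the sets overlapped at both times in the share itself, and the departures were 1.11 ± 0.10 and 0.71 ± 0.09 (adjusted p = 5.8e-05 and 0.0014, edgeR). Its paralog Actg1 departed by 0.96 and 0.64. Because actin genes have many near-identical processed pseudogenes, reads could be divided among copies.

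Among the 31 deeply measured genes called lower, Dnajc7, a co-chaperone of the heat shock proteins HSP70 and HSP90, had the most negative mean departure. The shares were 0.0228, 0.0220, 0.0956 and 0.0930 at 60 min and 0.0641, 0.050, 0.181 and 0.164 at 120 min, which gave departures of −1.001 ± 0.13 and −0.91 ± 0.12 (adjusted p = 0.00041 and 0.0014, edgeR). Chordc1, another HSP90 co-chaperone, departed by −0.76 and −0.81. Of the other genes named here, likewise after their values were seen, the mRNA export receptor Nxf1 departed by −0.89 and −0.92, the export helicase Ddx39b by −0.76 and −0.72, the splicing regulator Hnrnph1 by −0.66 and −0.78, and the nuclear exonuclease Xrn2 by −0.60 and −0.82. Further ones were Hells, a chromatin remodeler (−0.73 and −0.88), Dnm1l, the mitochondrial fission GTPase (−0.84 and −0.80), Acadm, an enzyme of fatty acid oxidation (−0.58 and −0.93), and Cox17, a copper chaperone (−0.94 and −0.54). Cox17 had only 7.67 CPM in the read counts at a mean T count of 51695, against 186 CPM at 133720 for Acadm. Whether all T counts of Cox17 belong to that gene was not tested. In the membrane fraction it departed by 0.26 and −0.20, with no call.

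**Figure D3:**
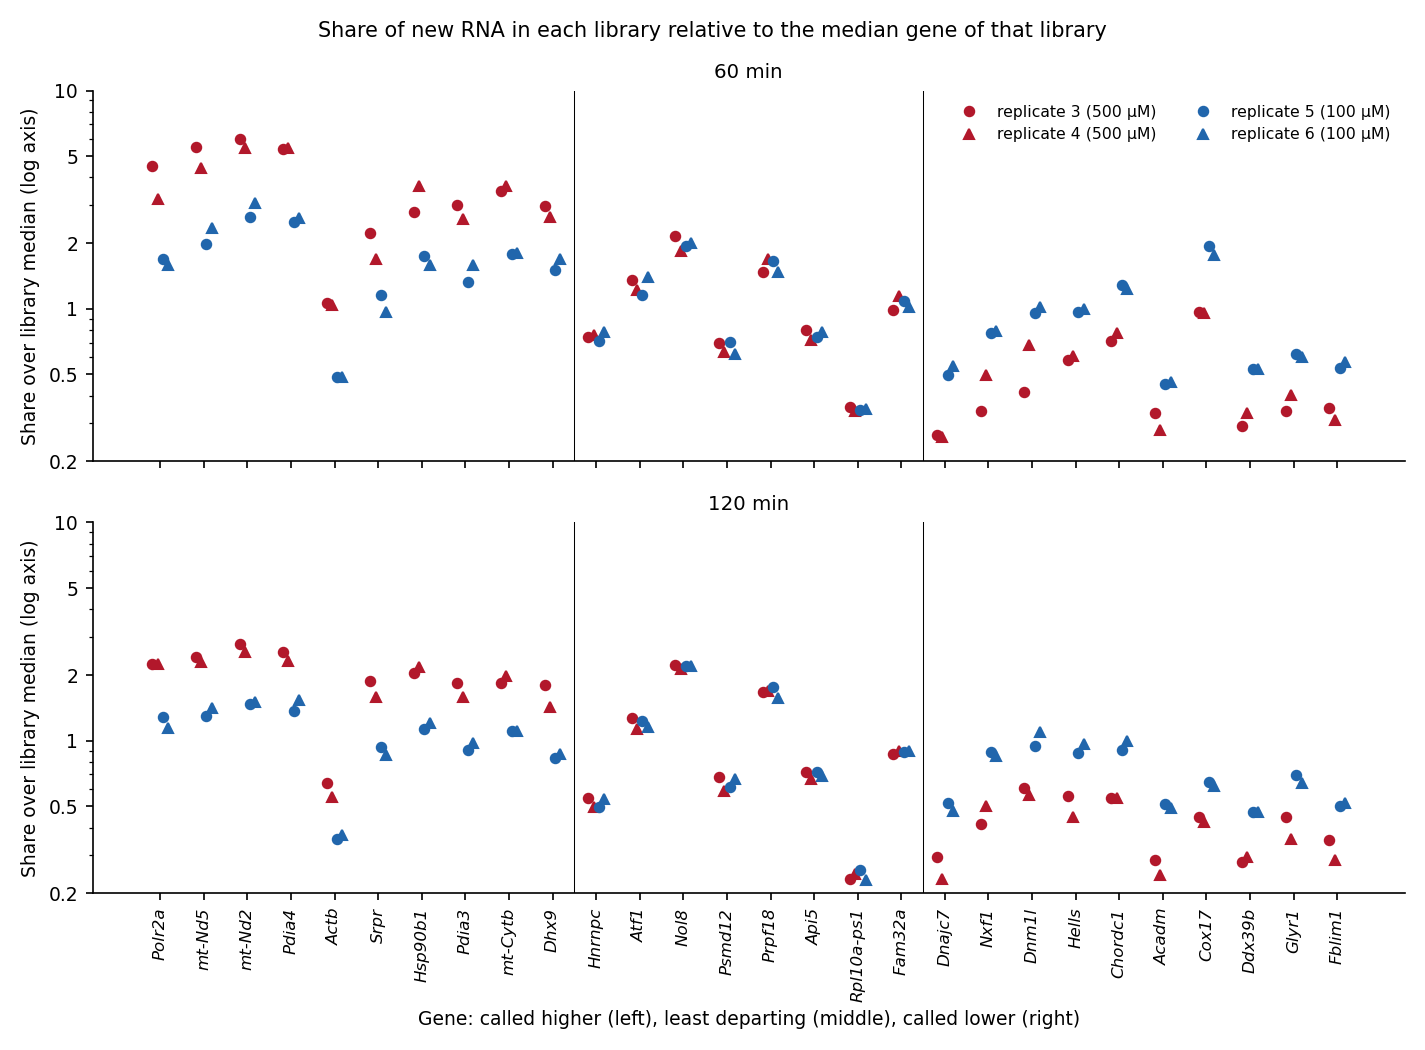
Share of new RNA in each library divided by the median share of that library (y axis, log scale) for 10 deeply measured genes called higher (left), the 8 least departing genes (middle) and 10 deeply measured genes called lower (right), at 60 min (top) and 120 min (bottom). The 500 µM libraries (red) lie above the 100 µM libraries (blue) on the left, among them in the middle and below them on the right.

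Genes were next grouped by function. These lists are described by counts and medians, against 889 genes called higher (8.93%) and 313 lower (3.15%) at 60 min, 529 (5.32%) and 249 (2.5%) at 120 min, and a median departure of 0.10 at both times over all 9951 genes.

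Messenger RNAs encoded by the mitochondrial genome, which make subunits of the respiratory chain and are neither exported from the nucleus nor spliced, had the highest median departure of all lists. All 8 measured members were called higher at 60 min and 6 of 8 at 120 min, with medians of 0.96 and 0.74. The median ratio of their shares was 0.926 at 60 min and 1.04 at 120 min. mt-Co1, a catalytic subunit of complex IV, had shares of 0.157, 0.147, 0.175 and 0.165 at 60 min and of 0.218, 0.223, 0.223 and 0.228 at 120 min. The sets were nearly level, and the departures of mt-Co1 were 0.91 ± 0.10 and 0.65 ± 0.10 (adjusted p = 0.00013 and 0.0024, edgeR). mt-Nd5, a subunit of complex I, had the largest departures of the list at 60 min, 1.19, and mt-Nd3, named here after its values were seen, had the smallest, 0.79 (0.46 and no call at 120 min).

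Reads of these mitochondrial mRNAs were fewer in the 500 µM set, by a median log2 fold change of −1.84 at 60 min and −1.38 at 120 min. Less RNA per mitochondrion and fewer mitochondria in the digitonin supernatant cannot be told apart in such libraries. By comparison, the 79 nuclear-encoded subunits of the respiratory chain had median departures of 0.11 and 0.07, with 5 members called higher and 1 lower at 60 min, and 2 in each direction at 120 min. The 78 mitochondrial ribosomal proteins were also near the overall median, at 0.14 and 0.15, with 7 higher and 4 lower at 60 min and 2 higher at 120 min.

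Cytosolic ribosomal proteins, whose mRNAs are among the most stable and abundant, lay above the overall ratio. Of 80 members, 25 were called higher and none lower at 60 min, and 6 higher and none lower at 120 min (edgeR). The medians were 0.44 and 0.30, and 79 of the 80 had a departure above 0 at each time. Rps26, of the small subunit, had shares of 0.0398, 0.0343, 0.0579 and 0.0471 at 60 min and of 0.0782, 0.0794, 0.0807 and 0.0813 at 120 min. The 500 µM libraries were below the 100 µM libraries at both times, by little at 120 min, with departures of 0.57 and 0.64 (adjusted p = 0.0038 and 0.0033, edgeR). Conversions of Rps26 at 60 min were above the level taken as background in each library, but by least in the 100 µM set. The size of its departure at 60 min is therefore uncertain. Ribosomal protein genes have many processed pseudogenes, so their reads could be split or shared.

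Of the translation factors, 6 of 58 were called higher and 1 lower at 60 min, and 3 higher and 1 lower at 120 min, with medians of 0.12 and 0.08. Eef2, the factor that moves the ribosome along mRNA, departed by 0.76 and 0.62 (adjusted p = 0.00023 and 0.0023, edgeR). The member called lower at 60 min was Eif2ak2, which is in the list by its symbol. It encodes the kinase PKR that is activated by double-stranded RNA, not a translation factor. Its departures were −0.93 at 60 min (adjusted p = 0.017, edgeR) and −0.48 at 120 min (adjusted p = 0.13). Subunits of the proteasome and of the TRiC chaperonin kept close to the overall ratio: 1 of 36 and none of 8 were called at 60 min, and none at 120 min (edgeR), with medians of 0.10 and 0.12 at 60 min and of −0.01 for both at 120 min. Among 37 ribosome biogenesis factors, 3 were lower at 60 min and 1 higher at 120 min, and the medians were 0.02 and 0.03.

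Genes with short-lived mRNAs departed upwards. Of 20 immediate early and other labile mRNAs, 16 were called higher at 60 min and 13 at 120 min, none was lower, and the medians were 0.74 and 0.54. Ier2, an immediate early transcription regulator with a single exon, had shares of 0.719, 0.621, 0.877 and 0.794 at 60 min and of 0.900, 0.910, 0.959 and 0.961 at 120 min. The 500 µM libraries were slightly below the 100 µM libraries, and the departures were 0.75 ± 0.10 and 0.60 ± 0.10 (adjusted p = 0.00035 and 0.0032, edgeR). Junb, a subunit of the AP-1 transcription factor, departed by 0.79 and 0.69. Shares of this list were close to the ceiling of 1, with a median over genes of 0.835 for the mean of the 8 libraries, and a share near 1 in both sets leaves a ratio near 1.

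That ceiling was examined on the scale of −ln(1 − share), an alternative chosen after seeing the data. The scale is linear in time for a constant turnover in a single compartment without delay. Cytosolic mRNA appears only after transcription, splicing and export, so the scale need not be linear here. It could be computed for 9319 genes with shares under 0.95 in all libraries. On that scale limma called 484 genes higher and 280 lower at 60 min, and 277 and 105 at 120 min, where the same genes on the share scale gave 676 and 322, and 307 and 143. Mitochondrially encoded and cytosolic ribosomal protein mRNAs kept their departures there, with medians of 1.01 and 0.51 at 60 min and of 0.89 and 0.42 at 120 min. Only 3 of the 20 labile mRNAs could be computed, at medians of 0.32 and 0.41. Zfp zinc finger proteins, a large family of DNA-binding proteins, had 78 of 299 members called higher and 3 lower at 60 min, and 31 higher and none lower at 120 min on the share scale (edgeR), with medians of 0.36 and 0.37. For the 162 members that could be computed on the other scale, the medians were 0.08 and 0.09 there and 0.21 and 0.30 on the share scale.

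Over all genes, the departure was higher at higher shares of new RNA, except among the lowest shares at 60 min. The Spearman correlation between the mean share and the departure, which are computed from the same counts, was 0.27 at 60 min and 0.49 at 120 min (n = 9951). Genes with a mean share under 0.1 had median departures of 0.02 and −0.13 (n = 1933), genes with a mean share of 0.1 to 0.2 had −0.04 and −0.09, and genes with a mean share of at least 0.8 had 0.59 and 0.49. Of the 219 genes in the latter group, 134 were called higher at 60 min and none lower (edgeR). Mean expression weighed less, with correlations of −0.145 and −0.203 to the CPM in the cytosol and of −0.09 and −0.14 to the T count.

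Pluripotency factors, which sustain the embryonic stem cell state, were called higher in 9 of 17 cases at 60 min and 2 of 17 at 120 min, with medians of 0.52 and 0.36 and none lower. Klf4, a transcription factor with a short-lived mRNA, had shares of 0.538, 0.513, 0.696 and 0.604 at 60 min and of 0.929, 0.867, 1.01 and 0.963 at 120 min. Its departures were 0.77 and 0.55 (adjusted p = 0.0002 and 0.0032, edgeR). Pou5f1, which encodes OCT4 and has a stable mRNA in these data, had shares of 0.0341, 0.0261, 0.0479 and 0.0384 at 60 min. Its departures were 0.56 and 0.45, and it was called at 60 min. Its conversions in replicates 5 and 6 there were little above the level taken as background, 0.0946 and 0.0860% of T. The size of that departure is therefore uncertain. On the −ln(1 − share) scale, the medians of the 13 factors that could be computed were 0.37 and 0.13, against 0.45 and 0.36 on the share scale. Nanog departed by 0.43 and 0.26, short of the limit in size.

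Stress response genes were also above the overall ratio. Of 17 genes of the integrated stress response, 7 were higher at 60 min and 5 at 120 min, with medians of 0.44 and 0.35, and none was lower. On the −ln(1 − share) scale, the medians of 12 of them were 0.38 and 0.16, against 0.37 and 0.33 on the share scale. Ddit3, the transcription factor CHOP, had shares of 0.321, 0.420, 0.412 and 0.367 at 60 min and of 0.735, 0.819, 0.613 and 0.582 at 120 min. Its share at 120 min was thus higher in the 500 µM libraries, with departures of 1.02 ± 0.20 and 1.06 ± 0.18 (adjusted p = 0.0038 and 0.0039, edgeR). Its read counts were lower there, by log2 fold changes of −1.39 and −1.17. Among 21 p53 targets, 6 and 8 were higher and none lower, with medians of 0.38 and 0.49. For the 13 of them that could be computed on the −ln(1 − share) scale, the medians were 0.25 and 0.44. The same 13 had 0.38 and 0.46 on the share scale. Ddit4, an inhibitor of mTORC1 signaling, departed by 0.66 at both times. Of 14 heat shock proteins, 5 were higher at 60 min and 2 at 120 min, among them the cytosolic chaperone Hsp90ab1 at both times (0.79 and 0.62).

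Genes of ER translocation and folding were called higher in 9 of 23 cases at 60 min and 8 of 23 at 120 min, none was lower, and the medians were 0.42 and 0.39. Their mRNAs are translated at the ER membrane, and those in the digitonin supernatant are the portion not held there. Hsp90b1, the chaperone GRP94, had shares of 0.239, 0.315, 0.338 and 0.268 at 60 min and of 0.446, 0.468, 0.397 and 0.418 at 120 min. The libraries of the sets overlapped at 60 min in the share itself, and at 120 min the 500 µM libraries were the higher, with departures of 0.96 ± 0.14 and 0.85 ± 0.13 (adjusted p = 0.00058 and 0.0031, edgeR). Hsp90b1 was likewise called at 20 min between sets of the same dose, higher in replicates 3 and 4 than in replicates 1 and 2 (log2 ratio of the latter over the former −1.63, adjusted p = 0.042, edgeR). Read counts of the list were lower in the 500 µM set, by median log2 fold changes of −0.79 and −0.87. The tenth of all genes most enriched in the membrane over the cytosol had median departures of 0.22 and 0.25, with 118 of 995 called higher and 9 lower at 60 min, and 91 and 1 at 120 min. Of 20 genes of cholesterol synthesis and uptake, 2 and 3 were higher at 60 and 120 min and none was lower (edgeR), with medians of 0.09 and 0.19.

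Host transcripts of small nucleolar RNAs, which are spliced, exported and quickly decayed, were higher in 6 of 11 cases at 60 min and 3 of 11 at 120 min, with medians of 0.66 and 0.31. For the 7 that could be computed on the −ln(1 − share) scale, the medians were 0.39 and 0.36, against 0.57 and 0.33 on the share scale. Snhg1 had shares of 0.664, 0.553, 0.704 and 0.674 at 60 min and of 0.745, 0.713, 0.724 and 0.763 at 120 min, and departed by 0.89 and 0.65 (adjusted p = 0.00021 and 0.0032, edgeR). Of 17 glycolytic enzymes, 5 were higher at 60 min, and 2 higher and 1 lower at 120 min. Ldha, which reduces pyruvate to lactate, departed by 0.71 and 0.62 (adjusted p = 0.0013 and 0.0046, edgeR), and the phosphofructokinase Pfkp by −0.62 and −1.03 (adjusted p = 0.15 and 0.017).

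The list of SR splicing factors and their kinases had the lowest medians, −0.21 and −0.14. Of its 18 members, 2 were called lower at 60 min and 1 at 120 min, and none was higher (edgeR). Srsf3 had shares of 0.0548, 0.0523, 0.174 and 0.167 at 60 min and of 0.115, 0.105, 0.235 and 0.249 at 120 min, and departed by −0.60 ± 0.10 and −0.46 ± 0.09 (adjusted p = 0.0012 and 0.0083, edgeR). Srpk1, a kinase of SR proteins, was lower at both times, by −0.81 and −0.54 (adjusted p = 0.003 and 0.02, edgeR). Among 25 cyclins and mitotic regulators, 3 were higher and 1 lower at 60 min, and 1 was lower at 120 min, the mitotic checkpoint kinase Bub1 (−0.60 and −0.75, lower at both times). Enzymes of pyrimidine salvage and synthesis, the route by which 4sU reaches RNA, had medians of −0.07 and −0.02. Of its 15 members, 2 were higher and 1 lower at 60 min and 1 lower at 120 min, Upp1, which cleaves uridine (−0.51 and −0.75, adjusted p = 0.014 and 0.0031, edgeR).

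The 2 histone genes measured had 0.92 and 0.47 in the median and no call, and of 18 markers of other cell types only 3 had enough T counts, with medians of 0.04 and 0.19 and no call.

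**Figure D4:**
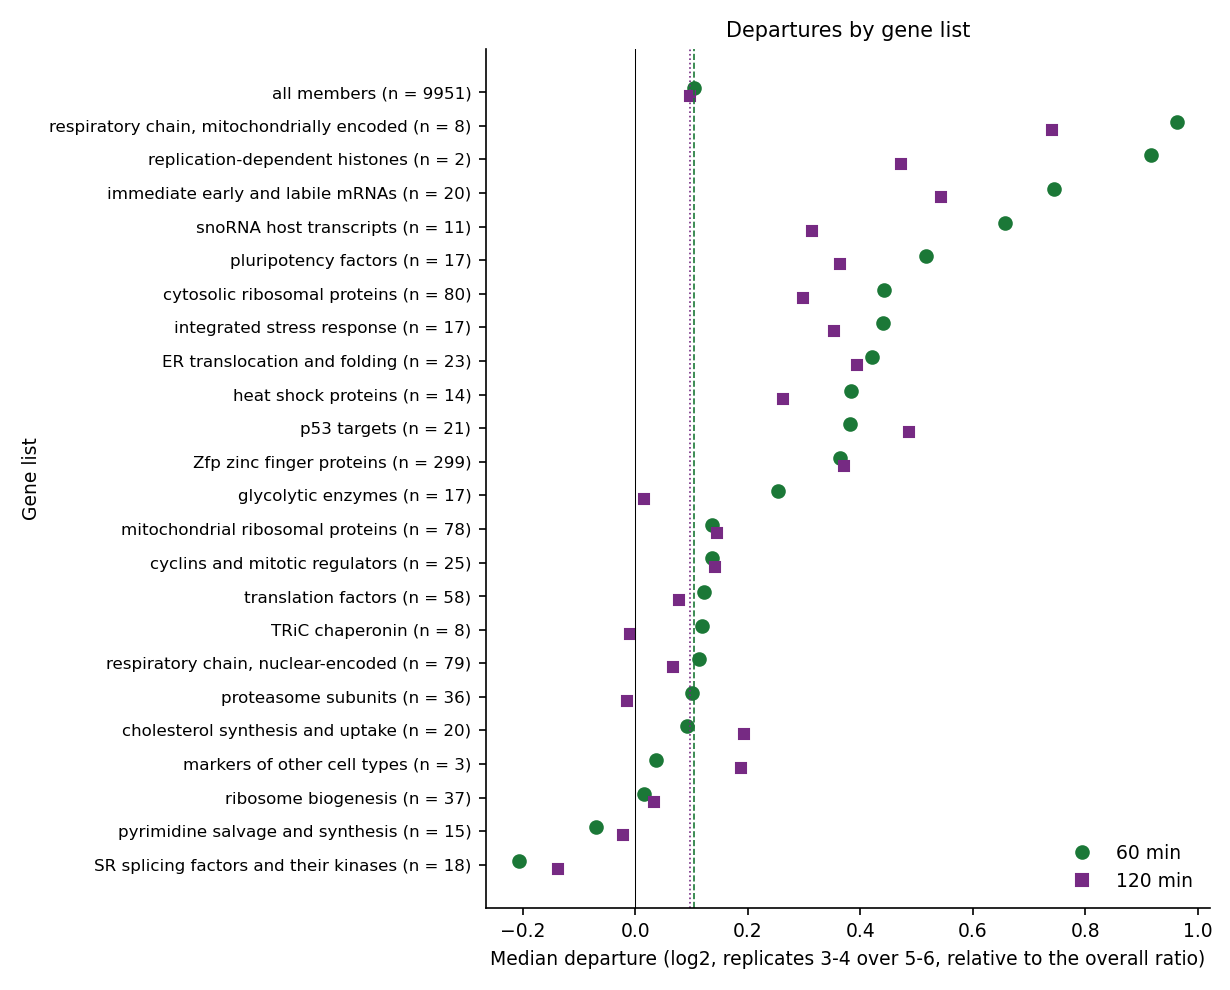
Median departure of each gene list (x axis, log2, 500 µM set over 100 µM set relative to the overall ratio) at 60 min (green circles) and 120 min (purple squares), with the number of members in parentheses. Dashed and dotted lines mark the medians of all 9951 genes, 0.10 at both times, which mitochondrially encoded mRNAs exceed most (0.96 and 0.74) and SR splicing factors fall short of most (−0.21 and −0.14).

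Among features of the genes, exon number and the share had the closest relations to the departure of the features compared, and exon number had a Spearman correlation of −0.36 at 60 min and −0.40 at 120 min (9935 annotated genes). Protein-coding genes with 1 exon had median departures of 0.40 and 0.38 (n = 172), those with 2 exons 0.42 and 0.40 (n = 335), and those with 3 or 4 exons 0.31 and 0.27 (n = 1280). With 5 to 9 exons the medians were 0.11 at both times (n = 3002), with 10 to 19 exons −0.03 at both times (n = 3045), and with 20 or more −0.07 and −0.10 (n = 1417). The calls shifted alike, from 43 higher and none lower of 172 single-exon genes at 60 min to 39 higher and 78 lower of 1417 genes with 20 exons or more.

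The gradient was present among genes of similar share. With the protein-coding genes ordered by share in 5 groups, the group with the lowest shares had medians at 60 min of 0.34 for 1 exon (11 genes) and −0.23 for 20 exons or more (254 genes), and the group with the highest shares had 0.44 (83 genes) and 0.19 (154 genes). Gene length gave weaker correlations of −0.22 and −0.23, and the T content of the transcript −0.05 at both times. Between libraries of the same set, the medians of these exon classes differed from 0 by at most 0.10.

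A gradient with exon number was also present between replicate sets at 1 dose. At 20 min, replicates 1 and 2 over replicates 3 and 4 gave medians of 0.39 for single-exon genes, 0.34 for 2 exons, 0.19 for 3 or 4, 0.07 for 5 to 9, −0.02 for 10 to 19 and −0.13 for 20 or more. In this comparison replicates 3 and 4 are the denominator, whereas they are the numerator at 60 and 120 min. Relative to other genes, those with few exons were low in replicates 3 and 4 at 20 min. They were high in these replicates at 60 and 120 min. The relation of the gradient at 20 min to that at 60 and 120 min was not tested.

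**Figure D5:**
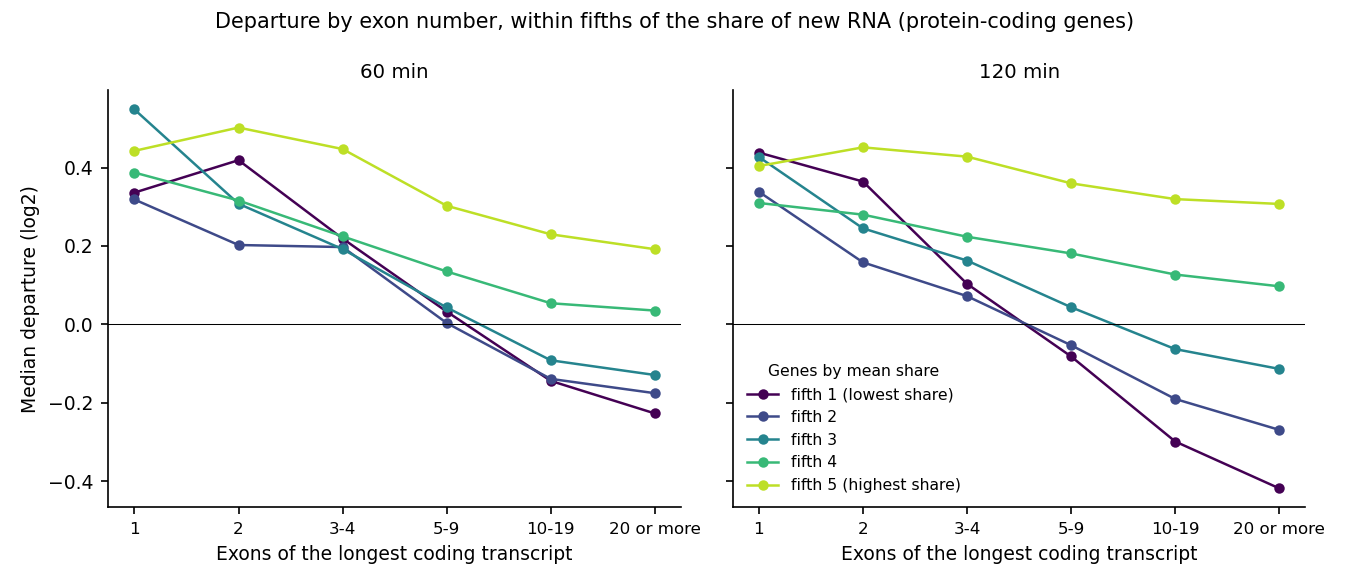
Median departure of protein-coding genes (y axis, log2) by the number of exons (x axis), drawn separately for 5 groups of the mean share of new RNA, at 60 min (left) and 120 min (right). In each group the median is lower at 20 exons or more than at 1 exon, and the group with the highest shares lies above the others at 10 exons or more.

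Pseudogenes, most of which have 1 exon, had median departures of 0.55 and 0.48 (n = 504). Of them 112 were called higher and 1 lower at 60 min, and 103 higher and none lower at 120 min (edgeR). They made up 62 of the 305 genes called higher at both times. Without pseudogenes and non-coding genes, 222 protein-coding genes were called higher at both times and 77 lower.

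Intronic sequence, which marks unspliced and mostly nuclear RNA, took different parts of the libraries in the sets. It made up 3.09, 3.33, 8.71 and 8.38% of T positions at 60 min and 3.47, 3.57, 5.89 and 7.32% at 120 min, less in each 500 µM library than in any 100 µM library. The median share of new RNA in introns of 2138 genes was 0.536, 0.532, 0.983 and 0.915 at 60 min and 0.760, 0.734, 0.953 and 0.990 at 120 min. The 500 µM set was thus below the 100 µM set in introns as well. Whether intronic RNA or carry-over from the nucleus had a part in the exonic ratios was not tested. In 1181 genes with sufficient counts in the first and the last exon, the ratio of the median shares was 0.493 and 0.663 in the first exon and 0.455 and 0.563 in the last.

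Read counts of genes also differed between the sets. Of 9630 genes of the comparison that passed the expression filter, 3748 (38.9%) differed at 60 min, 2293 higher (23.8%) and 1455 lower (15.1%) in the 500 µM set (edgeR, adjusted p under 0.05 and a log2 fold change over 0.5). At 120 min 2088 (21.7%) differed, 1168 higher (12.1%) and 920 lower (9.55%). Over all 15390 genes tested, 2505 were higher (16.3%) and 3211 lower (20.9%) at 60 min, 37.1% in all, and 1373 higher (8.92%) and 2192 lower (14.2%) at 120 min, 23.2% in all. With DESeq2 size factors the split was 2972 and 2667, and 1819 and 1754. Over all genes tested, 5716 at 60 min and 3565 at 120 min were called with all libraries, 39 and 30 without replicate 5, and 111 and none without replicate 6 (edgeR, with 2707 genes at an unadjusted p under 0.05). Across genes, the departure had a Pearson correlation of −0.07 with the log2 fold change of the read counts at 60 min and −0.13 at 120 min. These measures share libraries but not counts.

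The other fractions of the same cultures had other overall ratios. In exons the ratio of the sets was 0.648 at 60 min and 0.722 at 120 min in the membrane fraction, and 0.982 and 0.945 in the nucleus. Calls numbered 251 higher (2.61%) and 169 lower (1.76%) of 9604 genes in the membrane at 60 min and 155 (1.61%) and 137 (1.43%) at 120 min, and in the nucleus 456 (4.82%) and 274 (2.89%) of 9466 genes at 60 min and 24 (0.254%) and 7 (0.0739%) at 120 min. In whole cells, replicate 6 had a median share of 0.360 at 60 min and 0.170 at 120 min, against 0.212 and 0.373 in replicate 5, so these libraries go against their labeled times. The whole-cell ratio was 0.387 and 0.834 with all libraries, and other whole-cell values are given without replicate 6. The nuclear median shares were 0.27, 0.19, 0.25 and 0.22 at 60 min and 0.43, 0.35, 0.43 and 0.40 at 120 min. In the nucleus the libraries of the sets thus overlapped, and replicates 3 and 4 differed more than the means of the sets did. The nuclear ratios near 1 are therefore imprecise. The cytosolic shares were the furthest apart of the 3 fractions.

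Departures of the called genes mostly had the same sign in the membrane fraction, where 53.9% of all genes lay above 0 at 60 min and 56.8% at 120 min. Of the 305 genes called higher in the cytosol at both times, 302 were measured in the membrane, where 287 had departures above 0 at 60 min and 299 at 120 min, with medians of 0.39 and 0.42, against medians of 0.03 and 0.06 over all genes. In the nucleus, 186 and 246 of 299 were above 0, with medians of 0.10 and 0.13. Of the 80 genes called lower, 7 and 1 were above 0 in the membrane, with medians of −0.43 and −0.61, and 26 and 28 in the nucleus, with medians of −0.14 and −0.07. In whole cells without replicate 6, the medians were 0.57 and 0.62 for the genes called higher and −0.37 and −0.54 for those called lower. The fractions came from the same cultures and are not independent of the cytosolic libraries.

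The departure changed with labeling time for 1 gene (0.01%) by the test of that difference, whereas 702 of 9951 had an unadjusted p under 0.05 (edgeR). This was Gm42418, whose locus collects reads of ribosomal RNA. Its shares were 0.0216, 0.0254, 0.0433 and 0.0360 at 60 min and 0.0255, 0.0240, 0.0644 and 0.0612 at 120 min. The departure was 0.32 at 60 min and −0.66 at 120 min. Of the genes next in order, Ncbp2, a subunit of the nuclear cap-binding complex, had −0.60 and 0.26, Atg16l1, an autophagy protein, −0.68 and 0.16, and Wdr76 −0.95 and −0.19.

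At the limit of 2000 T counts, 381 genes lay just inside (lowest T count from 2000 to under 2500) and 408 just outside (from 1600). Their median departures were 0.18 and 0.23 at 60 min and 0.18 and 0.19 at 120 min. Close to the limit, the lowest T count was 2002 for Kif21b, a kinesin, inside and 1997 for Zfp947, a zinc finger protein, outside.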

How the data were processed

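Cytosolic libraries of 60 and 120 min, replicates 3 to 6, were analysed, with the membrane, nuclear and whole-cell libraries of the same replicates and the cytosolic libraries of 20 min as comparison. Poly(A)-selected stranded libraries were sequenced as read pairs. The authors aligned reads with STAR 2.7.6 to GRCm38, deposited counts per gene from HTSeq 0.11.1, and deposited T and T2C counts per exon and gene after excluding variants called in unlabeled samples, with a conversion rate per library as a fraction from a binomial mixture model. The deposited ratio column of the authors, T2C over T divided by that rate, is this share. Libraries of 180 min and unlabeled libraries were not used here. Reads assigned to no gene (30.4 to 38.8% in the 8 libraries) stayed out of totals.

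The share was T2C counts over T counts over the conversion rate, with no background subtracted. Each library was centred on its median share. Departures were tested with edgeR 4.0.16 (glmQLFit, glmQLFTest; Benjamini-Hochberg over 9951 genes), in 1 fit of 8 libraries and 4 groups, and the fit was tested on simulated data. Read counts were tested with edgeR, TMM factors and filterByExpr in 15390 genes. DESeq2 1.42.0 and limma 3.58.1 served as alternatives, together with other minimum counts, centring, background subtraction, a replicate block and leaving out each replicate. Conversions in 1 read are not independent molecules, so SEs cover the spread between libraries only as far as 2 per group show it. Named genes were the 10 largest departures in each direction among genes called at both times whose sets did not overlap relative to the library medians, the 8 smallest with at least 200 T2C counts, 4 per list (2 with the most T counts, 2 with the largest departures), and the 5 with the smallest p for a difference between times. The genes, lists and tests were chosen with earlier results of these data known. The genes with at least 200 T2C counts in all libraries were chosen after seeing their values. Some genes that this rule picks are not reported here. Exon numbers and positions are from Gencode M21 (GRCm38), which held 9935 of the 9951 genes.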

Additional observations from a re-analysis of the deposited data

Results flagged for a closer look

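The departure of Gm42418 from the overall ratio differed between the labeling times by −0.988 on the log2 scale (120 min minus 60 min), the 1 gene of 9951 past the threshold in the test of that difference (adjusted p = 0.021, edgeR). Its read counts were lower in the 500 µM set, by log2 fold changes of −2.38 at 60 min and −1.83 at 120 min. Gm26917, which lies next to Gm42418 on chromosome 17, had departures of 1.40 and −0.12.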

How the results depend on the processing

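The overall ratio stayed between 0.446 and 0.514 at 60 min and between 0.572 and 0.664 at 120 min under every alternative run. Without centring, shares as deposited gave 7776 calls at 60 min (8 higher) and 4824 at 120 min (7 higher). With only the 4 libraries of a time in the fit the counts were 651 and 1179. Subtracting background gave 398 calls at 120 min, dropping the limit on size gave 1320 there, and limma on −ln(1 − share), added after seeing the data, gave 764 and 382, against 450 at 120 min for the same genes on the share scale. Leaving out 1 replicate gave 12 to 2403 calls at 60 min and 0 to 1652 at 120 min, 0 to 262 for the difference between times (166 and 207 at an unadjusted p under 0.05 in edgeR without replicate 5 or 6, where none was called), 39 to 8546 for read counts at 60 min and 0 to 7018 at 120 min. In these fits the lone library is assumed to vary like the other groups, and without replicate 5 or 6 the residual spread is set by replicates 3 and 4.

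For the difference between times, DESeq2 gave 4 calls, background subtraction 6, a T count minimum of 400 none (784 at an unadjusted p under 0.05, edgeR) and limma none (679). At 20 min, DESeq2 gave 46, a T count minimum of 10000 gave 7, TMM centring 65, at least 20 T2C counts 39, limma 5, and leaving out 1 replicate 2 to 446.

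With replicate number as a block, limma called 1300 genes at 60 min and 607 at 120 min, where it called 1301 and 599 without the block. For the difference between times the block gave 4 calls in edgeR and 0 in limma (864 at an unadjusted p under 0.05), and for read counts limma with voom weights gave 5687 and 3574. Deviations of same-numbered libraries correlated by 0.1 for replicates 3 and 4 and 0.0524 for replicates 5 and 6. With 2 libraries per group the deviations mirror each other, so each set gives only 1 value. The correlation within a replicate number that limma estimated was 0.135 for shares and 0.532 for read counts. These values cannot show that same-numbered libraries are independent.

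Of 3728 recomputed values of named genes, 3241 kept direction and side of the threshold, 415 fell short of it, 72 passed it, and 0 called values changed sign. Genes with a share under 0.1 are limited by depth and by the level that was subtracted as background. That level was the conversions in the 1% of genes with the lowest shares, 0.086 to 0.337% of T, against 0.438 to 2.44% in the median gene. In replicates 3 and 4 it rose from 0.117 and 0.129% at 60 min to 0.269 and 0.337% at 120 min. It is therefore not a measure of sequencing error alone and can include new RNA. Unlabeled libraries were not used for it.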
